A study of Mus musculus with 4 samples.

Results

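The genes that encode the PTF1 complex were described in RNA-seq of GFP+ cells from the mouse neural tube: *Ptf1a*, *Rbpj*, *Rbpjl*, *Tcf3*, *Tcf4* and *Tcf12*. They are 6 of the 24421 genes of the deposited table and were taken by their symbols. *Prdm13* GFP is a knock-in allele with GFP in the first exon of *Prdm13*, made with zinc finger nucleases, and it disrupts the gene. GFP+ cells were sorted from dissociated neural tubes of E11.5 embryos, either *Prdm13* GFP/+ (heterozygous controls) or *Prdm13* GFP/GFP (homozygous mutants). All embryos therefore carried the GFP allele, and these libraries have no wildtype group. RNA of 7 heterozygous embryos formed 1 pool and RNA of 9 homozygous embryos another, and 2 libraries of polyadenylated RNA were sequenced from each pool. Replicates are therefore technical, and no standard deviation or p-value given here covers variation between embryos. The level of a gene is given in RPKM, the reads on a gene scaled to its exon length and to the size of the library.

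PTF1A is a tissue-specific class II basic helix-loop-helix (bHLH) factor, known in the dorsal neural tube for specifying inhibitory neurons and in the pancreas for acinar cells. It works in PTF1, a trimer of PTF1A, an E protein and RBPJ, which binds a composite site made of an E-box and a TC-box. The E proteins, encoded by *Tcf3* (E12 and E47), *Tcf4* (E2-2) and *Tcf12* (HEB), are broadly expressed class I bHLH factors that dimerize with many class II factors. RBPJ is otherwise the DNA-binding effector of Notch signalling, and RBPJL, which does not respond to Notch, takes its place in mature acinar cells. PTF1A activates its own gene, *Rbpjl* and *Prdm13*, and the study asked how PRDM13 acts on this network.

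The 250 bases before the start of *Ptf1a*, the subunit gene that rose, are shown whole, and of *Rbpjl*, a known PTF1 target that was not detectable here, the 28 bases that hold both kinds of motif. They are RefSeq sequences of GRCm38.p6 on the plus strand, at chr2:19445413-19445662 and chr2:164403090-164403117. The start used for *Rbpjl* is that of its coding transcript at 164403194, so the stretch lies before that start but inside the longer span RefSeq gives the gene. Capitals mark CANNTG, the E-box, which reads the same on both strands, and TGGGAA or its reverse complement TTCCCA, the core of RBPJ sites and TC-boxes.
Ptf1a: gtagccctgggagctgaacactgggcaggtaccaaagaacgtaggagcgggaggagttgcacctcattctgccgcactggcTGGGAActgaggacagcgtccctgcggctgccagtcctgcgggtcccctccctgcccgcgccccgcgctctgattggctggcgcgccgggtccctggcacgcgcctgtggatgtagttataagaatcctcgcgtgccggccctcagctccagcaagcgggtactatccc
Rbpjl: TGGGAAgcctaCATCTGcccagCAGGTG
The window of *Ptf1a* held TGGGAA 169 bases before the start and no CANNTG. The paper places the autoregulatory enhancer of *Ptf1a*, with its PTF1 sites, farther upstream, so it lies outside this window. In that of *Rbpjl*, TGGGAA began 104 bases before the start and the E-boxes CATCTG and CAGGTG at 93 and 82. No base was shared by matches of both kinds. Among 32851 promoter windows of the same length, 66.2% held CANNTG, 21.6% held TGGGAA or TTCCCA, and 5.93% held both with starts no more than 30 bases apart. The window of *Rbpjl* was among the last, and so was that of *Rbpj* at chr5:53590096-53590345, while another window of *Rbpj* was not. A match is a description of letters and was not tested for binding.

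The control libraries held 11690592 and 18599849 reads on genes and the mutant libraries 16597849 and 14041159, as recovered from the steps of the RPKM values. *Prdm13*, the gene disrupted by the allele, was at 113.9 and 126.8 RPKM in the controls and at 309.5 and 324.5 RPKM in the mutants (log2 fold change 1.40, standard error 0.0613, adjusted p = 3.63e-05 in limma). These values sum reads over all its exons and do not tell the disrupted allele from the intact one, so they are no check of the genotype labels. Of 10 markers of the dorsal neural tube all passed the filter. Their summed level was 722.5 and 796.8 RPKM in the controls and 314.6 and 330.3 RPKM in the mutants, with 8 called lower (6 or 7 with any 1 library left out) and 0 higher. The largest falls in RPKM were those of *Lhx5*, *Lhx1* and *Pax2*, which are also in the list of the PTF1A program below. The marker list does not hold *Tlx1*, *Tlx3*, *Lmx1b*, *Isl1* or *Pou4f1*. The paper names these genes among the dorsal specification factors and reports them as higher in the mutants. The sum and the calls are therefore those of the markers chosen and do not show a general loss of dorsal identity. *Pax3* (73.97 and 75.22 against 69.9 and 70.05 RPKM) did not pass the test. *Pax7* (17.95 and 19.23 against 14.53 and 14.66 RPKM) was lower and not called. In sorted pools, fewer cells of a type and less RNA per cell cannot be told apart. Pancreas markers summed to between 0.291 and 0.561 RPKM, with *Pdx1*, *Ins1* and *Ins2* at 0 in all 4 libraries.

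*Ptf1a* was the subunit gene that rose in the mutants, 3.53-fold, while *Rbpj*, *Tcf3* and *Tcf4* did not pass the test and *Tcf12* was lower by less than the fold of 1.5 set for a call. *Rbpjl* was not detectable at this depth. Of the 6 genes, 5 reached a mean of 1 RPKM in one of the genotypes and were tested, and 1 was called, *Ptf1a*, higher in the mutants. Over all 12046 genes tested, 3.65% were called higher and 2.67% lower. To be called, a gene needed a 1.5-fold difference as well as an adjusted p under 0.05. Without a fold requirement, 9.76% of all genes were past the adjusted p and higher and 9.95% past it and lower, and among the subunit genes these were *Ptf1a* and *Tcf12*. The median log2 fold change of the 5 genes was -3.51e-05, and that of all genes tested 0.010.

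**Figure D1:**
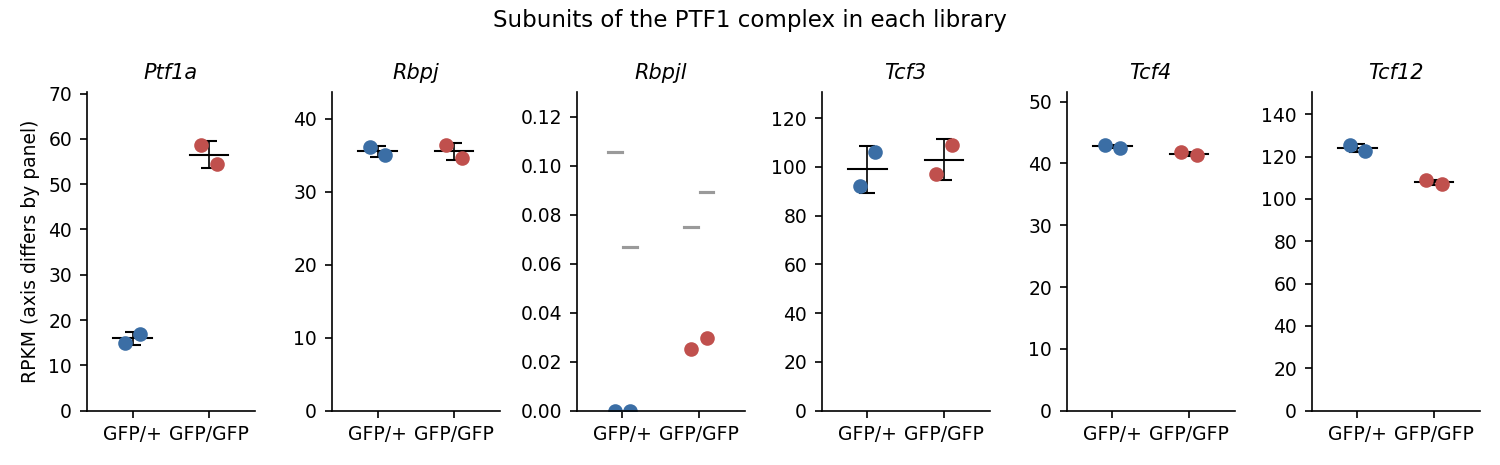
RPKM of the 6 genes in *Prdm13* GFP/+ (blue) and *Prdm13* GFP/GFP (red); each point is a library, bars are the mean and SD of 2 libraries, and each panel has its own axis from 0. *Ptf1a* lies at 15.0 and 17.0 against 58.6 and 54.4 RPKM, *Tcf12* is lower in both mutant libraries, and *Rbpjl* lies under the level of 3 reads, drawn as grey dashes for each library.

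*Ptf1a* (gene ID 19213, GRCm38 chromosome 2, 19445663 to 19447501) was at 15.0 and 17.0 RPKM in the control libraries and at 58.6 and 54.4 RPKM in the mutant libraries. Both mutant libraries lay far above both control libraries. The means were 16.0 ± 1.41 and 56.5 ± 2.98 RPKM (SD, n = 2 libraries). The values rest on 262 and 470 reads in the controls and on 1437 and 1122 reads in the mutants. On the log2 scale the difference was 1.81 (standard error 0.0749, 95% interval 1.64 to 1.99, adjusted p = 2.77e-05 in limma), which corresponds to a fold between 3.11 and 3.98. It ranked 97 among the 12046 log2 fold changes, counted from the highest. With all genes of the table tested and no filter, the adjusted p was 0.0619. Taken alone, a gene with 2 libraries in each group can reach no two-sided p below 0.333 in an exact permutation test, so the call rests on the spread shared across genes.

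*Ptf1aos*, an antisense noncoding gene, starts within *Ptf1a* and shares 609 bases of exon with it, 40.4% of the exon bases of *Ptf1a* and 66.5% of its own. It was at 0.0943 and 0.238 RPKM in the controls and at 0.604 and 0.559 RPKM in the mutants, from 1, 4, 9 and 7 reads. The strand setting of the counting is not given in the sources used here, and without strand the reads of the shared bases cannot be told apart. *Ptf1aos* was under the filter and was not tested.

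*Rbpj*, the DNA-binding subunit shared with Notch signalling (gene ID 19664, chromosome 5 from 53555779 to 53657445), was at 36.1 and 35.0 RPKM in the controls and at 36.4 and 34.7 RPKM in the mutants. The control values lay between the mutant values. The means were 35.5 ± 0.752 and 35.5 ± 1.20 RPKM (SD, n = 2 libraries). The 95% interval of the log2 fold change was -0.12 to 0.12, so that a fold of up to 1.09 in either direction was within the error. The RefSeq annotation also names pseudogenes of *Rbpj*, *Rbpj-ps1*, *Rbpj-ps2* and *Rbpj-ps3*, which have no row of their own in the table, and how reads shared with them were counted is not given in the sources used here.

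*Rbpjl* (gene ID 19668, chromosome 2 from 164403081 to 164415448) had 0 reads in both control libraries and 1 read in each mutant library, which is 0.0250 and 0.0298 RPKM. All 4 values were under the level that 3 reads would give, between 0.0667 and 0.106 RPKM, a limit that covers counting error only. In the same libraries *Rbpj* stood between 342 and 525 times that level. No fold was computed for *Rbpjl*, and whether it differed between the genotypes was not detectable at this depth.

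Among the E proteins, *Tcf12* (gene ID 21406, chromosome 9 from 71844252 to 72111893) was the most abundant in the controls, at 125.4 and 122.7 RPKM, and was at 108.8 and 107.1 RPKM in the mutants. Both mutant libraries were lower, by more than the difference between libraries of a pool. The log2 fold change was -0.20, with a standard error of 0.0427 and an adjusted p of 0.0217 in limma, a fold of 0.870 with a 95% interval of 0.811 to 0.934. With any 1 of the 4 libraries left out the log2 fold change lay between -0.22 and -0.19, but the adjusted p was between 0.0750 and 0.140 and no longer under 0.05. The fit without a trend gave an adjusted p of 0.0817.

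*Tcf3* (gene ID 21423, chromosome 10 from 80409541 to 80433976) was at 92.3 and 105.9 RPKM in the controls and at 96.9 and 108.9 RPKM in the mutants. The groups overlapped, and the libraries of a pool differed more for *Tcf3* than for the other E proteins. The difference was 0.056 on the log2 scale (standard error 0.0832, 95% interval -0.14 to 0.26, adjusted p = 0.679 in limma). Its sign was negative under quantile normalization and without control replicate 1 or mutant replicate 2.

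*Tcf4* (gene ID 21413, chromosome 18 from 69343429 to 69687967) was at 43.0 and 42.5 RPKM in the controls and at 41.8 and 41.3 RPKM in the mutants. Both mutant libraries were slightly lower, but the difference did not pass the test (log2 fold change -0.040, 95% interval -0.15 to 0.070, adjusted p = 0.579 in limma). Of the 5 genes tested, 1 had both mutant libraries above both controls and 2 had both below, against 31.7% and 30.3% of all genes tested. The table gives 1 value for each gene, so that isoforms such as E12 and E47 of *Tcf3* are summed. Between transcripts of different subunit genes the longest identical stretch was 47 bases, in *Tcf4* and *Tcf12*, and it was between 10 and 23 bases in the other pairs.

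**Figure D2:**
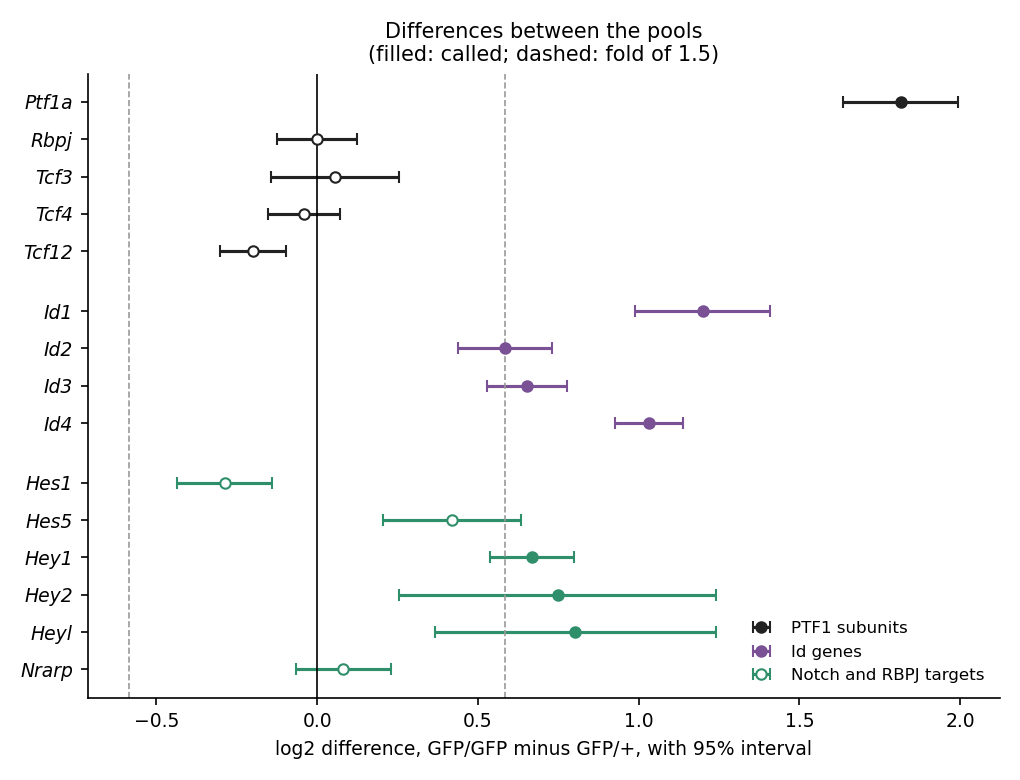
Log2 fold change of *Prdm13* GFP/GFP against *Prdm13* GFP/+ with its 95% interval (limma, 4 libraries) for the 5 subunit genes tested, the Id genes and the Notch and RBPJ target genes. *Ptf1a* at 1.81 stands apart from its partners, all of which lie between -0.20 and 0.056, while all 4 Id genes lie between 0.59 and 1.20.

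RPKM is per length, so the levels of different genes can be set side by side within a library. Each gene has 1 such length, 1508 bases for *Ptf1a* and 5953 for *Rbpj*, whichever of its transcripts are expressed. Comparisons between genes depend on these lengths. By mean level in the controls the order was *Tcf12* (124.1 ± 1.87 RPKM), *Tcf3* (99.1 ± 9.62), *Tcf4* (42.7 ± 0.297), *Rbpj* (35.5 ± 0.752), *Ptf1a* (16.0 ± 1.41) and *Rbpjl*, and no neighbours in it overlapped. In the mutants *Ptf1a*, at 56.5 ± 2.98 RPKM, stood between *Tcf3* (102.9 ± 8.52) and *Tcf4* (41.6 ± 0.365). There *Tcf12* (108.0 ± 1.20) and *Tcf3* overlapped, and the other neighbours did not.

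The transcript of the class II subunit was the scarcest of the detected members in the controls and exceeded that of *Rbpj* in the mutants. The ratio of *Ptf1a* to *Rbpj* RPKM was 0.416 and 0.486 in the control libraries and 1.61 and 1.57 in the mutant libraries, so that it crossed 1 between the genotypes. E protein transcripts stayed in excess of those of *Ptf1a* in all 4 libraries. Their summed level was 17.4 and 15.9 times that of *Ptf1a* in the controls and 4.22 and 4.73 times in the mutants. The sum itself was 260.6 and 271.1 RPKM in the controls and 247.5 and 257.3 RPKM in the mutants, with the higher mutant library just under the lower control library. These ratios do not depend on the scaling between libraries, were not tested, and concern RNA and not protein. They are ratios over a pool of sorted cells and do not give the levels within the cells that express *Ptf1a*.

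The share of each E protein in their sum was read within each library and was not tested. *Tcf12* made up 48.1 and 45.3% of it in the controls and 44.0 and 41.6% in the mutants. *Tcf3* made up 35.4 and 39.0% in the controls and 39.1 and 42.3% in the mutants. *Tcf4* stayed between 15.7 and 16.9% in all 4 libraries, and its groups overlapped. The ratio of *Tcf12* to *Tcf4* was 2.92 and 2.89 in the controls and 2.60 and 2.59 in the mutants, without overlap.

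The Id genes encode helix-loop-helix proteins that lack the basic region and hold E proteins in dimers that do not bind DNA. All 4 were called higher in the mutants, and the median log2 fold change was 0.84. *Id1* went from 46.4 and 53.8 RPKM to 107.9 and 122.3 RPKM (log2 fold change 1.20, adjusted p = 0.000374 in limma). *Id4* went from 60.0 and 61.3 RPKM to 125.8 and 122.7 RPKM (log2 fold change 1.03, adjusted p = 3.30e-05 in limma). *Id3* went from 49.2 and 52.5 RPKM to 79.1 and 81.0 RPKM (log2 fold change 0.65). *Id2*, from 66.4 and 72.8 RPKM to 101.3 and 107.6 RPKM, lay just inside the fold of 1.5 (log2 fold change 0.5853 against the limit of 0.585). It fell outside that fold without control replicate 1 or mutant replicate 2 and under 4 other alternatives, and its log2 fold change was 0.52 to 0.65 with a library left out. For each of the 4, both mutant libraries were above both control libraries. With no filter on RPKM, *Id1*, *Id2* and *Id3* had an adjusted p between 0.0619 and 0.108. The Id sum was 0.852 and 0.887 times the E protein sum in the controls and 1.67 and 1.69 times in the mutants.

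**Figure D3:**
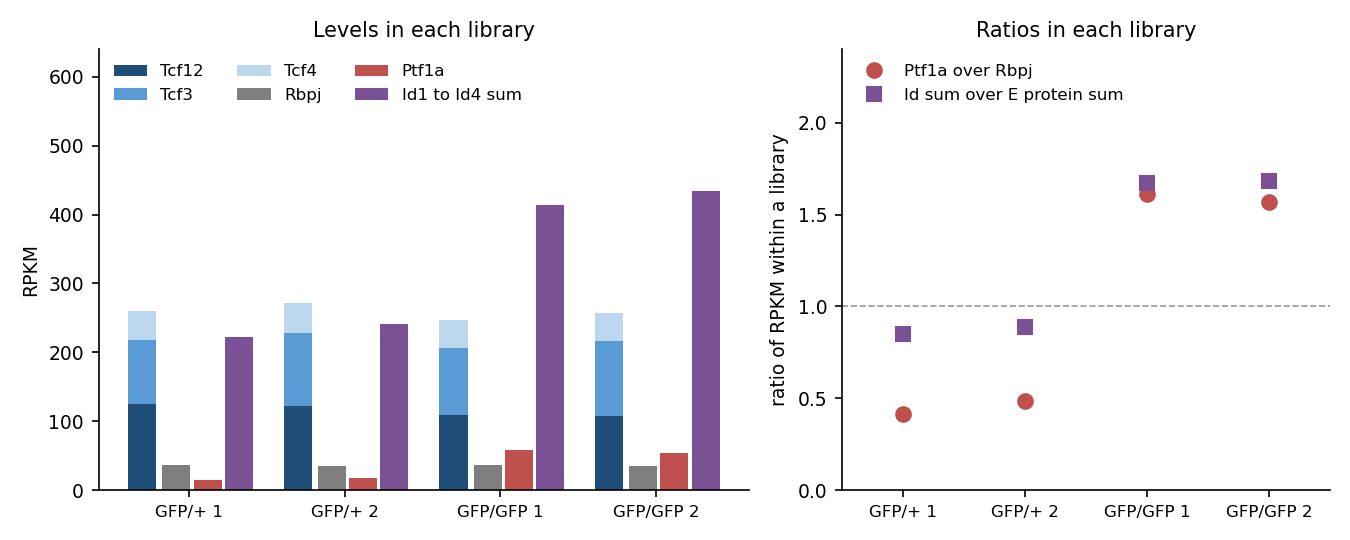
Left, RPKM in each library of the E proteins (stacked), *Rbpj*, *Ptf1a* and the sum of the 4 Id genes; right, the ratio of *Ptf1a* to *Rbpj* and of the Id sum to the E protein sum in each library, with a dashed line at 1. Both ratios lie under 1 in the control libraries and between 1.57 and 1.69 in the mutant libraries, while the stacks of E proteins stay between 247.5 and 271.1 RPKM.

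Other class II bHLH genes, whose products can pair with the same E proteins, were measured for 45 genes, of which 15 passed the filter on RPKM. Of these, 7 were called higher and 2 lower, with a median log2 fold change of 0.44. *Olig1* and *Olig2* passed the filter only through the mutants, where they were higher, and *Scx* only through the controls, where it was higher. The filter favoured the direction of these calls, which are part of the counts and the median. The proneural gene *Neurog1* went from 9.86 and 12.5 RPKM to 35.3 and 42.0 RPKM (log2 fold change 1.79), *Neurog2* from 60.0 and 69.2 RPKM to 110.5 and 115.7 RPKM (0.81), and *Neurod4*, which acts later in neuronal differentiation, from 6.25 and 6.35 RPKM to 24.2 and 23.4 RPKM (1.90). *Atoh8* rose by 1.65 and *Bhlhe22* by 1.47 on the log2 scale. *Olig1* and *Olig2*, which mark motor neuron progenitors of the ventral neural tube, had 0 and 3 reads and 0 and 1 read in the controls and between 328 and 709 reads in the mutant libraries. At 17.0 and 21.3 RPKM, *Olig2* stood below *Ptf1a* in the mutants. *Bhlhe23* and *Scx* were called lower, at log2 fold changes of -0.59 and -1.21, on at most 157 reads in a library. The adjusted p of *Bhlhe23*, 0.0198, rose to between 0.0619 and 0.109 with any library left out. That of *Scx*, 0.0221, rose to 0.0888 and 0.112 without a control library and to 0.0555 without mutant replicate 1.

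Genes for proteins that act with E proteins or with RBPJ all passed the filter on RPKM, and none was called. Over all genes tested, 3.65% were called higher and 2.67% lower, so no call in lists this short says little about these genes. Whatever the fold, 9.76% of all genes were past the adjusted p and higher and 9.95% past it and lower. Of 7 coactivators and corepressors of E proteins, 0 were called and 4 passed the adjusted p alone, 1 higher and 3 lower. *Runx1t1*, a corepressor of the ETO family, went from 12.9 and 13.6 RPKM to 9.12 and 9.09 RPKM, and its relative *Cbfa2t2* from 19.1 and 19.3 RPKM to 26.8 and 26.0 RPKM. The acetyltransferase genes *Ep300* and *Crebbp* had log2 fold changes of -0.27 and -0.28. Of 11 genes for corepressors and regulators of RBPJ, 0 were called and 1 passed the adjusted p, *Fhl1*, at a log2 fold change of 0.38. Of 7 genes for Notch receptors and Mastermind coactivators, 0 were called, *Notch1* passed the adjusted p higher (50.7 and 56.5 against 67.4 and 71.4 RPKM) and *Maml2* lower (4.84 and 4.85 against 3.68 and 3.05 RPKM). The median log2 fold changes of these lists were -0.13, -0.023 and 0.059. With any library left out, *Ep300* and *Crebbp* no longer passed the adjusted p (0.0609 to 0.160). Neither did *Maml2*, except without mutant replicate 1, where it was called lower (log2 fold change -0.65, adjusted p = 0.0395 in limma), *Notch1*, except without control replicate 2, and *Fhl1* without mutant replicate 2 (0.0527 to 0.126 for *Maml2* and *Notch1*, 0.0513 for *Fhl1*).

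Among target genes of Notch and RBPJ the calls were all higher in the mutants. Of 6 tested, 3 were called higher, 5 passed the adjusted p alone, 4 higher and 1 lower, and the median log2 fold change was 0.54. *Hey1* went from 15.2 and 14.8 RPKM to 23.5 and 24.4 RPKM (log2 fold change 0.67, adjusted p = 0.000530 in limma). *Hey2* and *Heyl* passed the filter only through the mutants, where they were higher, so 2 of the 3 calls favour that direction. They had under 2 RPKM in every library, with log2 fold changes of 0.75 and 0.80 and an adjusted p of 0.0484 and 0.0262, which rose to between 0.0791 and 0.159 and between 0.0603 and 0.104 with any library left out. *Hes5*, at 115.1 and 136.5 against 159.1 and 176.7 RPKM, passed the adjusted p (0.0218) and not the fold, and without either mutant library or control replicate 1 its adjusted p was 0.0698 to 0.178. *Hes1* passed it in the other direction, at 43.1 and 47.7 against 36.9 and 37.3 RPKM (adjusted p = 0.0221, and 0.0905 to 0.136 without either mutant library or control replicate 2). *Nrarp*, a feedback inhibitor of Notch, did not pass the test, at 74.6 and 83.4 against 84.0 and 82.9 RPKM.

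Neural genes that PTF1A is known to act on or through moved in both directions, and all 13 were called. Higher in the mutants were 3, *Prdm13* and the adhesion genes *Kirrel2* (94.7 and 99.8 against 228.6 and 244.0 RPKM) and *Nphs1* (24.2 and 24.9 against 62.9 and 64.1 RPKM). Their log2 fold changes of 1.40, 1.28 and 1.37 were below that of *Ptf1a*. Lower were 10, with a median log2 fold change over the 13 of -2.17. Among these were the inhibitory interneuron factors *Pax2* (106.4 and 119.2 against 17.7 and 18.6 RPKM) and *Pax8* (53.3 and 54.2 against 9.27 and 9.88 RPKM), and *Lhx1* and *Lhx5* at -2.48 and -2.12. The genes of GABA and glycine synthesis and transport *Gad1*, *Gad2*, *Slc32a1* and *Slc6a5* lay between -2.60 and -2.17, the corepressor gene *Skor2* at -1.66 and the neuropeptide gene *Npy* at -1.36. The ratio of *Prdm13* to *Ptf1a* was 7.59 and 7.45 in the controls and 5.28 and 5.97 in the mutants. Many of these genes, with *Olig1* and *Olig2*, are ones the study itself discussed from these libraries, so the list is no independent evidence of a direction.

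**Figure D4:**
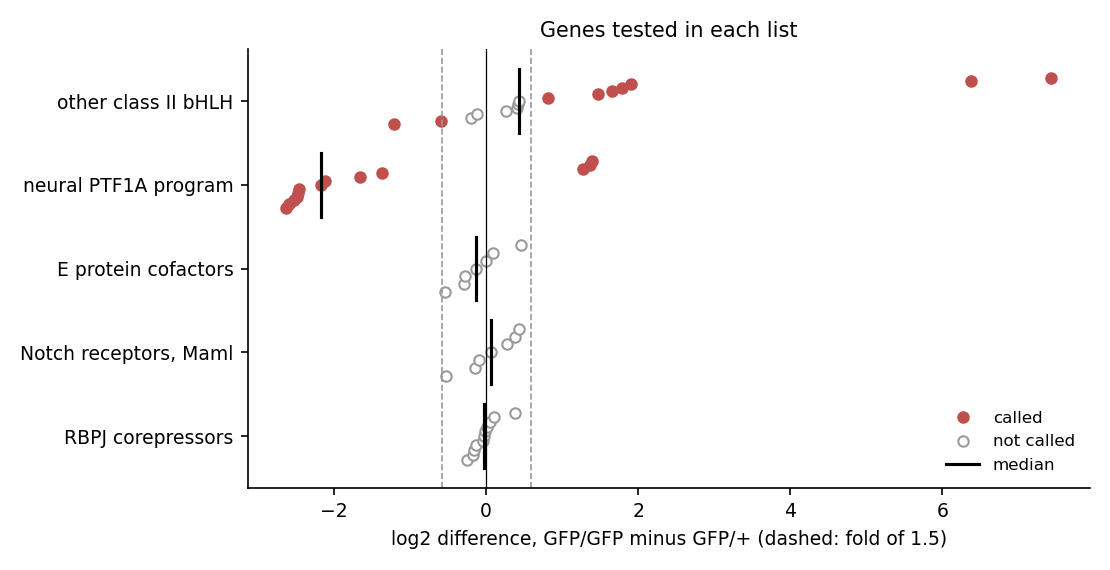
Log2 fold change of *Prdm13* GFP/GFP against *Prdm13* GFP/+ for the genes tested in 5 lists; each point is a gene, filled where called, and black lines are medians. The points of the neural PTF1A program lie on either side of the dashed lines at a fold of 1.5, and those of the E protein cofactors, the Notch receptors and the RBPJ corepressors all lie between them.

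The acinar genes that PTF1A controls together with RBPJL in the pancreas were at low levels in all libraries. Of 14, 13 were under the filter, and no gene exceeded 1.89 RPKM in any library. *Ctrl*, the gene tested, was at 1.56 and 1.17 RPKM in the controls and at 1.25 and 1.89 RPKM in the mutants, with overlapping groups. *Cpa1* was at 0 in both controls and at 0.0390 and 0.0463 RPKM in the mutants, and *Amy2a5* had no read counted in any library. *Bhlha15*, the acinar bHLH gene also known as Mist1, lay between 0.0989 and 0.293 RPKM.

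Near *Ptf1a*, *Msrb2* is the closest gene of the table at lower coordinates, 50687 bases away. It was at 2.03 and 3.57 RPKM in the controls and at 4.39 and 4.60 RPKM in the mutants, and it did not pass the test (log2 fold change 0.72, adjusted p = 0.0823 in limma). Its control libraries differed widely, and without control replicate 2 the adjusted p was 0.0167 and the log2 fold change 1.11. It was past the threshold also with voom on recovered reads (0.0259). *4921504E06Rik*, 15336 bases away on the other side, had between 1 and 4 reads in each library and was not tested.

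The genes whose pattern over the 4 libraries was nearest to that of *Ptf1a*, by the Euclidean distance of mean-centred log2(RPKM + 0.1) values, were *Ripply3*, *Parm1*, *Insrr*, *Mir92b* and *Neurod4*, at distances of 0.0720 to 0.146. *Ripply3* was at 2.09 and 2.32 RPKM in the controls and at 7.97 and 7.32 RPKM in the mutants. *Insrr* was at 0.660 and 0.717 RPKM in the controls and at 2.80 and 2.69 RPKM in the mutants. *Insrr* and *Parm1* passed the filter only through the mutants, where they were higher. *Neurod4* was the only bHLH gene of the 5. *Parm1* and *Mir92b*, the latter a row of 83 bases, rested on 7 to 51 and on 1 to 6 reads in a library. Over 4 libraries in 2 pools, such a distance mostly gives the size of the difference between the pools and is a description.

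**Figure D5:**
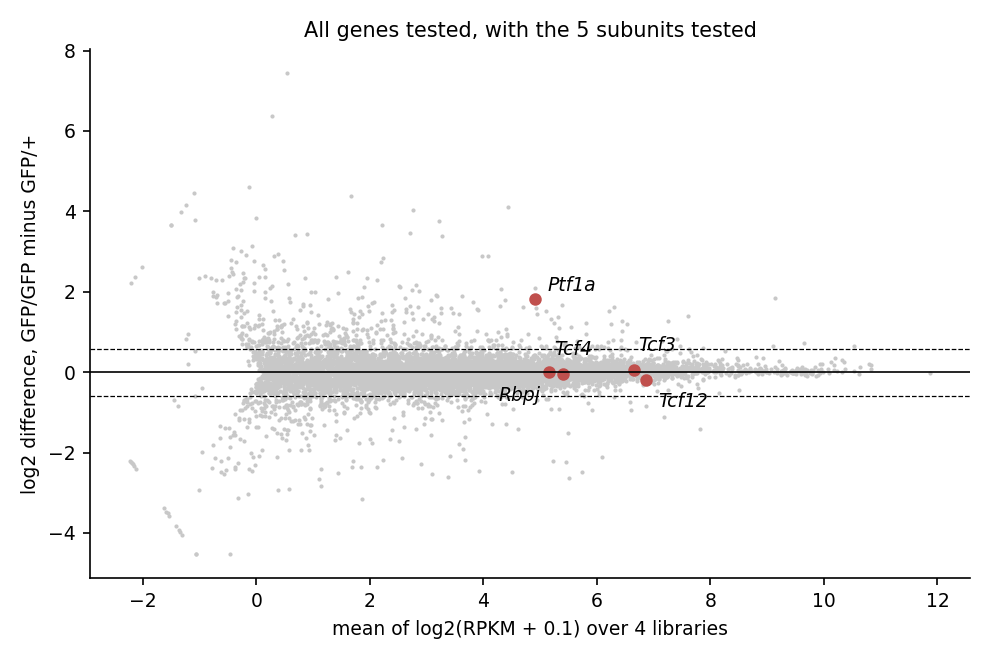
Log2 fold change of *Prdm13* GFP/GFP against *Prdm13* GFP/+ over the mean log2(RPKM + 0.1) of 4 libraries for the 12046 genes tested (grey), with the 5 subunit genes tested in red and dashed lines at a fold of 1.5. *Ptf1a* lies above the dashed line and the 4 partners lie between the lines among genes of like level.

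Markers of other cell types were read in the same libraries. Erythroid markers summed to between 30.8 and 34.5 RPKM and endothelial markers to no more than 3.15 RPKM, with 0 called in either list. The erythroid sum was mostly *Hbb-y* (23.7 and 26.1 against 28.3 and 26.7 RPKM), while *Hba-a1*, *Hba-a2* and *Hbb-bt* were at 0 in all 4 libraries. How reads that fit more than 1 gene were counted is not given in the sources used here. These zeros may therefore not mean absence, and the sum may be too low. Mesenchymal markers summed to 4.63 and 5.11 RPKM in the controls and 3.61 and 3.48 RPKM in the mutants, with 0 called. The sensory ganglion markers reported here, an incomplete list, summed to 13.01 and 13.70 RPKM in the controls and 10.03 and 10.05 RPKM in the mutants, with 0 called. That sum was mostly *Ntrk2*, which passed the adjusted p lower (12.2 and 12.6 against 9.10 and 8.87 RPKM). The other 4 genes were under the filter. Among them *Runx1*, *Runx3* and *Avil* had higher means in the mutants, on at most 11 reads in a library, and *Prph* a lower one. Of the neural crest and glial markers, *Foxd3*, which is also expressed in some spinal interneurons, was called lower (10.1 and 12.8 against 4.20 and 4.25 RPKM), and their sum was 12.7 and 15.7 against 7.48 and 7.59 RPKM. Of 8 progenitor and neuron markers, 6 passed the adjusted p, 4 higher and 2 lower, and 1 was called. Higher were the neuronal genes *Tubb3*, *Elavl3* and *Elavl4* and the progenitor gene *Pax6*, at log2 fold changes of 0.17 to 0.34. Lower were *Sox2* (-0.48) and *Sox1*, the gene called (14.0 and 15.2 against 9.02 and 9.06 RPKM). The sum of the list was 1629 and 1698 RPKM in the controls and 1875 and 1984 RPKM in the mutants, and with a library left out 2 or 3 of its genes passed the adjusted p. Most of that sum and of its rise was *Tubb3*, at 1017 and 1062 RPKM in the controls and 1265 and 1372 RPKM in the mutants. The part of these marker differences in the values of *Ptf1a* and the Id genes was not tested.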

How the data were processed

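RNA-seq of 4 libraries was used, 2 technical libraries from 1 pool for each genotype. The authors aligned reads to mm10 RefSeq genes with TopHat2 2.1.0, counted them on exons with featureCounts, normalized with TMM in edgeR 3.6.8 and deposited RPKM for 24421 genes. RPKM was used as deposited. Whole reads were recovered from RPKM steps, within 0.01 reads, for 19199 of 19200 genes above 0. Genes whose mean reached 1 RPKM in either pool were tested, two-sided, on log2(RPKM + 0.1), the scale of every log2 fold change, with lmFit and eBayes (trend) of limma 3.58.1 in R 4.3.3 and Benjamini-Hochberg adjustment. The code was tested on simulated data. Named were the 6 genes, *Prdm13*, called genes of fixed lists, tested Id and Notch target genes, neighbours of *Ptf1a* and the 5 genes nearest in pattern; others, such as markers and genes past the adjusted p alone, were chosen after their values were seen. From the lists and their sums, 2 genes were removed and go unreported. Members and lists were chosen with earlier results of these data known. Alternatives were pseudocounts of 1 and 0.01, no filter, median ratio scaling, quantile normalization, no trend, a block, voom on recovered reads and leaving out each library. Gene IDs gave RefSeq positions (GRCm38) for 99.9% of genes tested. Python 3.11.15 and matplotlib 3.10.9 were used.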

Additional observations from a re-analysis of the deposited data

How the results depend on the processing

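*Ptf1a* was called in all alternatives but 1, with log2 fold changes of 1.73 to 1.90. With no filter on RPKM, 0 subunit genes were called and 0 passed the adjusted p, and over all genes tested 44 were called in place of 762; the cause was not tested. 1 subunit gene passed the adjusted p in place of 2 (*Tcf12* was lost) without a trend and when any 1 library was left out. Among the genes named, signs changed for 2 that passed no test: *Tcf3* was at -0.019 under quantile normalization and at -0.043 to 0.16 with a library left out, and *Rbpj* at -0.034 to 0.034 with a library left out. Without mutant replicate 2 the genes called over all tested were 470, and those past the adjusted p 619 in place of 2375. Leaving out a library leaves 1 sample in its group, assumed to vary like the others. The correlation of same-numbered deviations was 0.0475 over 12046 genes, which does not speak for single genes such as *Tcf3*. With the replicate block, 1 subunit gene was called, 2 passed the adjusted p, and *Msrb2* passed it (0.0282). Over all genes tested, 3200 passed it with the block in place of 2375, and the standard error of *Tcf3* was 0.0348 in place of 0.0832. With a library left out, the Notch and RBPJ targets had 1 gene called in place of 3 and the class II list 0 or 1 lower in place of 2, while the 13 genes of the PTF1A program stayed called. Depth limits *Rbpjl* and *Ptf1aos*.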

Other observations

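Replicate 2 had more *Tcf3* than replicate 1 in both pools, by 0.20 in the controls and 0.17 in the mutants on the log2 scale, while counting error alone would give standard deviations of 0.029 and 0.028. Over all genes tested, 320 of 12046, or 2.66%, had replicate 2 above replicate 1 by at least as much as *Tcf3* in both pools. Among the 3136 genes with 1000 reads or more in every library these were 16, or 0.51%. For *Tcf4* and *Tcf12* the differences between libraries were -0.031 to -0.014. The median absolute difference between libraries of a pool over all genes tested was 0.0783 in the controls and 0.0776 in the mutants. This was noticed after the values were seen.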
